A study of Triticum aestivum with 12 samples.

Results

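The genes described here are those whose transcripts were more abundant in the leaves of drought-stressed wheat sprayed with a microalgal biostimulant than in any other leaf sample of the study, while drought moved their mean level little in plants sprayed with water. They were chosen by measured values: an average of 5 CPM (counts per 1000000 counts of a library) or more in drought_LRM, a ratio of drought_LRM to irrigated_LRM of at least 1 on the log2 scale, a ratio of drought_water to irrigated_water of at most 0.25 in size on the same scale, and no overlap between the 3 drought_LRM libraries and the 9 others. The rule kept 134 of 99386 gene identifiers, of which 19380 averaged 5 CPM or more in drought_LRM. Since every library entered the choice, the height of these genes in drought_LRM and their small change with water are properties of the rule and are given as a description.

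RNA was measured by sequencing of polyA transcripts from leaves of wild type bread wheat (Triticum aestivum) of the variety Chinese Spring L42, in 4 groups of 3 libraries. The drought_LRM plants received 30 ml at each of 2 waterings a week and were sprayed on the leaves with LRM, a biostimulant made from microalgae, at 0.5% in water every 14 days. The irrigated_LRM plants had the same spray and 180 ml, the volume their pots retained. The drought_water plants received 30 ml and the irrigated_water plants 180 ml, and both were sprayed with water alone. All were grown in a greenhouse with long days. The sources used here do not give the age at harvest, the number of plants behind a library or any batch, so the spread between libraries may be partly technical.

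Plants short of water close their stomata and accumulate the hormone abscisic acid, which sets off a large transcriptional programme of protective proteins, osmolyte synthesis and altered transport. Biostimulants are applied to shift growth or stress tolerance without acting as a fertiliser or pesticide. Bread wheat is a hexaploid whose subgenomes A, B and D mostly carry a copy each of the same gene, so reads of one copy can be counted for another. The identifiers of the files give the chromosome and its arm (Traes_5AS lies on the short arm of 5A) but no gene name. Of the 99386 identifiers 0 matched the reference gene table of IWGSC CS RefSeq v2.1, so no role is stated for any gene here, and the leaf identity of the samples could not be checked against marker genes.

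Total counts ran from 17541561 to 42569702 in drought_LRM, 31381925 to 41695671 in irrigated_LRM, 39432162 to 47305447 in drought_water and 32655769 to 44596075 in irrigated_water. The shallowest library was drought_LRM 2, and each of the 134 genes still had at least 75 counts in every drought_LRM library and at least 16 in every library. Library drought_water 1 and library irrigated_water 1 stood above the other libraries of their groups in most of these genes, as described below. In leaf RNA a larger share of a cell type and more RNA per cell cannot be told apart.

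The 134 genes together took 0.574% ± 0.0296 of the counts in drought_LRM, 0.247% ± 0.0197 in irrigated_LRM, 0.319% ± 0.0594 in drought_water and 0.282% ± 0.0440 in irrigated_water (SD, n = 3 each). Their drought ratio with LRM had a median of 1.16 on the log2 scale and reached 2.65. For 122 genes it was below 1.5, for 10 it lay from 1.5 to 2, and for 2 it was at least 2. The genes thus sat mostly near the 2-fold limit of the rule. On a linear scale the mean in drought_LRM was 1.41 to 4.65 times that in drought_water, with a median of 1.97, and 2.03 to 9.36 times that in irrigated_LRM, with a median of 2.33. The gap between the lowest drought_LRM library and the highest of the other 9 was at least 2-fold in 10 genes, at least 1.5-fold in 60 and under 1.1-fold in 7. All 134 genes had counts in all 12 libraries.

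**Figure D1:**
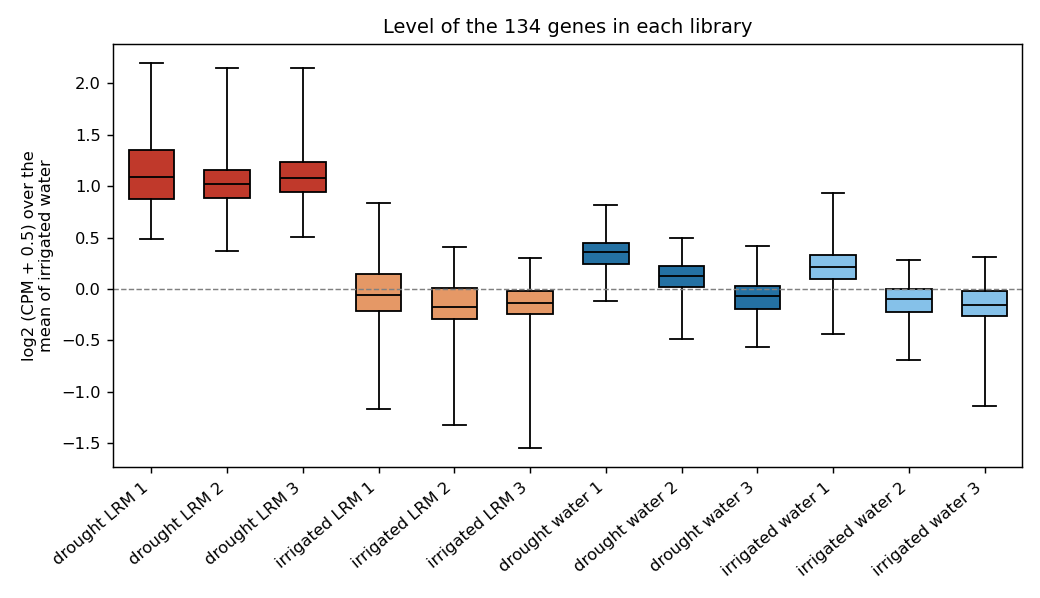
Level of the 134 genes in each of the 12 libraries, as log2 of CPM + 0.5 over the mean of the irrigated_water libraries; boxes run from the lower to the upper quartile of the genes, lines are medians and whiskers reach the lowest and highest gene. The drought_LRM medians were 1.09, 1.02 and 1.08, and among the other libraries drought_water 1 stood highest with a median of 0.36.

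Levels covered a wide range. In drought_LRM 10 of the genes averaged at least 100 CPM, 7 from 50 to 100, 72 from 10 to 50 and 45 below 10, with a median of 13.8 CPM beside 11.8 CPM over all 19380 genes of that minimum. The most abundant was Traes_4DL_03A5F7C7E, with 1507, 1540 and 1959 CPM in drought_LRM, 778, 543 and 722 CPM in irrigated_LRM, 1423, 1034 and 848 CPM in drought_water and 1183, 767 and 902 CPM in irrigated_water. Its drought_LRM libraries stood only 1.06-fold above drought_water 1, one of the 7 narrowest gaps. In edgeR's fit its difference between the sprays under drought was 0.48 on the log2 scale (SE 0.17). The adjusted p of edgeR's test for that difference was 0.105, so it was not called. Per length it was also the highest of the 4 most abundant genes, with a mean of 725 FPKM (counts per 1000 bases of gene and 1000000 counts) in drought_LRM.

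Traes_3DS_30343E9D9 came next with 502, 419 and 378 CPM in drought_LRM, 233, 191 and 216 CPM in irrigated_LRM, 216, 227 and 233 CPM in drought_water and 195, 202 and 198 CPM in irrigated_water. Here the 9 other libraries lay close together and the drought_LRM libraries stood apart from all of them. Per length it reached 598 FPKM in drought_LRM, since the length implied by its counts and FPKM was only 723 bases. Traes_4DS_05DEB5A63 averaged 253 ± 17.3 CPM in drought_LRM, 116 ± 4.20 in irrigated_LRM, 138 ± 19.9 in drought_water and 126 ± 10.5 in irrigated_water (SD, n = 3 each). The 3 drought_water libraries of that gene stood at 159, 134 and 120 CPM, the first of them above every irrigated library.

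The gene with the largest ratio, Traes_5AS_8228740AB, had 7.07, 8.84 and 8.01 CPM in drought_LRM and 0.774, 0.510 and 1.27 CPM in irrigated_LRM. In water-sprayed leaves it had 3.07, 2.08 and 1.35 CPM under drought and 4.32, 1.12 and 0.646 CPM under full irrigation. Both sets of water-sprayed libraries overlapped widely, and irrigated_water 1 was the highest of the 9 libraries outside drought_LRM. Its log2 ratio of 2.65 rested partly on the low irrigated_LRM level, which was 16 to 53 counts per library; against drought_water the mean was 3.68 times as high.

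Traes_3DL_E7E17D8A9 had the widest gap of the 134 genes, 2.85-fold between its lowest drought_LRM library and the highest other library. It stood at 23.2, 22.4 and 22.4 CPM in drought_LRM, against 6.51, 4.84 and 3.57 CPM in irrigated_LRM. With water it stood at 6.50, 4.82 and 3.30 CPM under drought, against 7.87, 3.74 and 2.38 CPM under full irrigation. The drought_LRM libraries thus lay within 1.035-fold of each other, while each of the other groups spread at least as far as its neighbours differed. Traes_2BL_EF188FE1F was far less abundant and had 5.40, 6.16 and 4.80 CPM in drought_LRM, 1.39, 0.988 and 1.22 CPM in irrigated_LRM, 1.96, 1.40 and 1.33 CPM in drought_water and 1.62, 1.70 and 1.17 CPM in irrigated_water. Traes_7DS_43B37BC41 averaged 12.7 ± 1.98 CPM in drought_LRM, 3.04 ± 0.364 in irrigated_LRM, 4.69 ± 1.19 in drought_water and 3.93 ± 0.846 in irrigated_water (SD, n = 3 each).

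The 4 genes with the smallest p of the interaction, which compares the drought change with LRM to the drought change with water, averaged 31.3 to 98.7 CPM in drought_LRM, above the upper quartile of the 134 genes at 26.1 CPM. Traes_6DS_11E957F4D had 33.2, 31.1 and 29.7 CPM in drought_LRM, 9.85, 10.8 and 9.79 CPM in irrigated_LRM, 14.6, 11.995 and 11.9 CPM in drought_water and 12.3, 10.4 and 9.72 CPM in irrigated_water. Its lowest drought_LRM library was 2.04 times its highest other library. Traes_2DS_895D44BD6 had 54.4, 53.2 and 57.8 CPM in drought_LRM against 21.1, 20.8 and 20.9 CPM in irrigated_LRM. With water it had 32.3, 25.4 and 21.1 CPM under drought against 26.6, 25.3 and 24.2 CPM under full irrigation. Both drought_water 1 and drought_water 3 lay outside the irrigated_water range of that gene, on opposite sides of it.

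Traes_7DS_86C512854 averaged 42.9 ± 3.11 CPM in drought_LRM, 15.3 ± 1.78 in irrigated_LRM, 19.2 ± 3.46 in drought_water and 17.6 ± 2.44 in irrigated_water (SD, n = 3 each). Traes_5DL_488FBAEEC had 95.6, 101 and 99.2 CPM in drought_LRM, 50.8, 48.8 and 46.5 CPM in irrigated_LRM, 49.1, 45.7 and 42.8 CPM in drought_water and 54.0, 40.5 and 42.8 CPM in irrigated_water. The 3 other groups of Traes_5DL_488FBAEEC overlapped one another, and its mean in drought_LRM was 2.15 times that in drought_water.

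**Figure D2:**
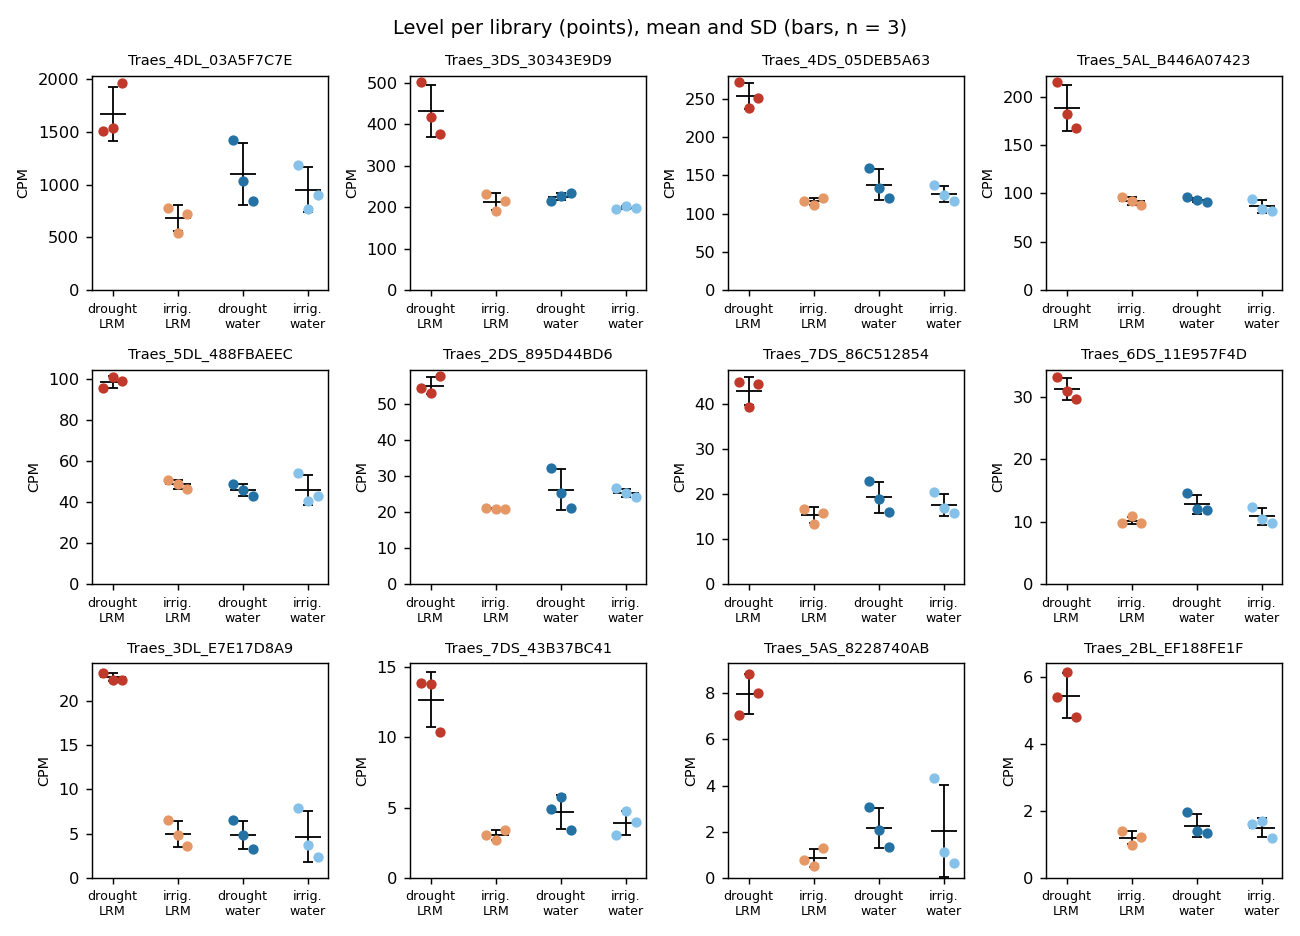
CPM per library (points) with mean and SD (bars, n = 3) for the 4 most abundant genes, the 4 with the largest drought ratio with LRM and the 4 with the smallest p of the interaction, each panel with its own linear axis from 0. In Traes_4DL_03A5F7C7E drought_water 1 nearly reached the drought_LRM points, and in Traes_3DL_E7E17D8A9 the gap was 2.85-fold.

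The spread among the drought_LRM libraries was close to that of other genes. The ratio of the highest to the lowest drought_LRM library had a median of 1.24, beside 1.26 over the genes of the same minimum. The rule removes genes in which a drought_LRM library falls to the level of the 9 others, which the genes of the minimum were not asked to pass. The 2 medians are therefore a description. Replicate 1 was the highest of the 3 in 60 genes, replicate 2 in 33 and replicate 3 in 41. The widest spread was that of Traes_6DL_3BCB83718, at 12.004, 4.28 and 5.66 CPM in drought_LRM, 3.90, 3.63 and 2.11 CPM in irrigated_LRM, 3.96, 4.01 and 3.25 CPM in drought_water and 3.86, 3.30 and 2.44 CPM in irrigated_water. Traes_5DL_0A3BF1059 was similar, with 16.4, 8.38 and 7.13 CPM in drought_LRM and 3.34 to 5.54 CPM in the 9 other libraries. In both of these genes replicate 1 set most of the group mean. The narrowest spreads were those of Traes_3B_EE56EFF1D, at 9.98, 10.03 and 10.1 CPM in drought_LRM and 3.51 to 6.28 CPM in the 9 other libraries, and Traes_7DL_DB32ADFAE, at 8.93, 8.78 and 8.73 CPM in drought_LRM and 2.29 to 4.06 CPM in the others.

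In single water-sprayed libraries the 134 genes were less even than their group means. Drought_water 1 lay above the irrigated_water mean in 131 of the 134 genes, drought_water 2 in 104 and drought_water 3 in 44, beside 60.3%, 64.6% and 45.1% of the genes of the same minimum, with median log2 ratios of 0.36, 0.12 and -0.07. Over all genes of the same minimum these medians were 0.07, 0.09 and -0.02. Drought_water 1 was the highest of its group in 114 of the 134 genes, or in 39.6% of the genes of the same minimum. It exceeded all 3 irrigated_water libraries in 97 genes, drought_water 2 did so in 36 and drought_water 3 in 8, beside 34.4%, 35.4% and 19.2% of the genes of the same minimum. The count was thus above its background for drought_water 1 and below it for drought_water 2 and 3. The rule limits the mean of these 3 libraries, so where drought_water 1 is high the others must be lower. The genes of the minimum have no such limit, so part of this difference is set by the rule and it is a description. Among the irrigated libraries irrigated_water 1 stood highest, above its own group mean in 116 genes. Its median log2 ratio to that mean was 0.21 in the 134 genes, beside 0.15 over all genes of the same minimum, so much of its height was not particular to the 134. The highest of the 9 libraries outside drought_LRM was drought_water 1 in 85 genes and irrigated_water 1 in 27. The small mean change with water was therefore an average over 3 unlike drought libraries, measured against a group in which 1 library was also high.

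The limit on the change with water removed most genes that met the other criteria. Without it 1205 genes passed, of which 1070 had a drought ratio with water above 0.25 on the log2 scale and 1 had one below -0.25. Of the 134 genes 127 had a ratio with water above 0 and 7 one below it, with a median of 0.17. The 1070 genes left out on the upper side had a median drought ratio of 1.70 with LRM and 0.64 with water, beside 1.16 and 0.17 in the 134 genes. The difference between the sprays under drought had medians of 0.93 in the 134 genes and 1.02 in the 1070, on the log2 scale. In the 1070 genes the drought_water libraries were ordered alike, at median log2 ratios of 0.96, 0.65 and 0.26 over the irrigated_water mean. The single gene on the other side, Traes_4AL_925E5A9C4, named after its values were seen, had 63.0, 77.1 and 85.5 CPM in drought_LRM, 35.8, 26.5 and 30.9 CPM in irrigated_LRM, 47.7, 40.9 and 33.2 CPM in drought_water and 60.3, 41.8 and 43.9 CPM in irrigated_water.

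**Figure D3:**
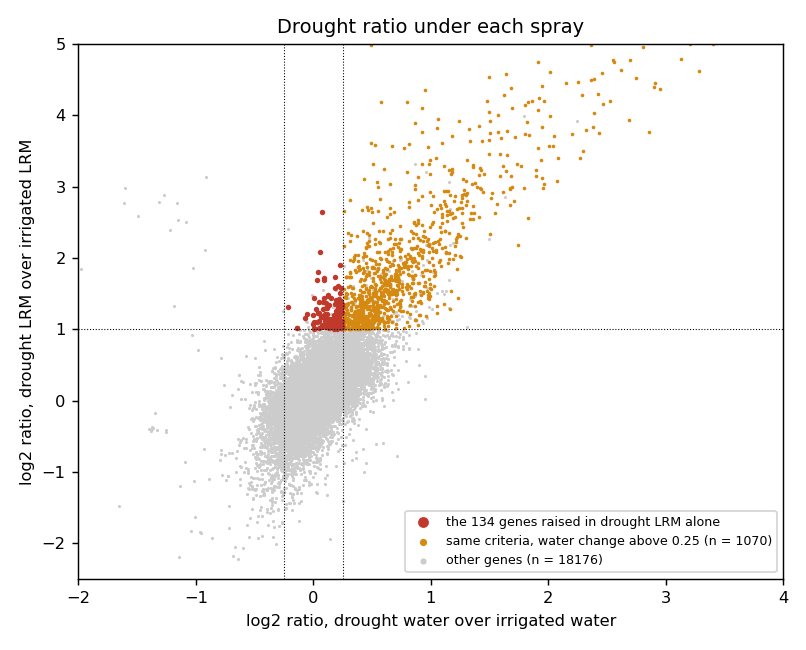
Drought ratio with LRM (vertical) against that with water (horizontal), both as log2 of group mean CPM + 0.5, for the 19380 genes that averaged 5 CPM or more in drought_LRM; 58 genes lie outside the axes and dotted lines mark the limits of the rule. The 134 genes (red) adjoin the 1070 genes (orange) that passed the other criteria with a ratio above 0.25 with water.

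Genes close to the limits show how narrow they were. Traes_2DL_2169EBB35 and Traes_5BL_C41169E6A were just inside the limit on the drought ratio with LRM, at 1.002 and 1.004, and Traes_4AS_60155447D and Traes_1AL_2F272AE06 just outside, at 0.9995 and 0.9973. For the change with water, Traes_2BL_23AD9FE71 at 0.246 and Traes_1BL_B08DFCFE9 at 0.244 were inside, and Traes_5BS_D8E13BD7B and Traes_7DL_AB67A0B36 were outside at 0.2501 and 0.2504. Traes_2BL_B0DA0AF08 and Traes_2BL_EF188FE1F had the lowest means kept, 5.37 and 5.45 CPM, while Traes_3B_EEDAB44DC and Traes_5BL_A2F507F1E were left out at 4.99 and 4.96 CPM. Of the gaps, Traes_7AS_EA9D6B6A6 was kept with 20.7 CPM in its lowest drought_LRM library against 19.9 CPM in the highest other library, and Traes_3B_BD1F09DAC1 with 11.6 against 11.05 CPM. Traes_1AL_C527C8688 was left out with 6.06 against 6.09 CPM, and Traes_2DL_17913EE21 with 44.1 against 44.7 CPM.

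The same 4 criteria were applied with the groups exchanged, as a count without a test. The number passing was 0 when drought_water was the high group, with 202 at least 2-fold above irrigated_water and 1 of these within 0.25 under LRM. When irrigated_LRM was the high group 11 genes passed, and when irrigated_water was the high group 0 passed. These counts share their libraries with the choice of the 134 genes. They use CPM by column totals, on which the median log2 drought ratio with LRM was 0.18 over all genes of the minimum. That shift eases the 2-fold limit for drought_LRM as the high group, and the exchanged counts were not repeated with another scaling.

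A library that the choice did not use was had by leaving out each in turn, choosing genes on the other 11 and then reading the library left out. The libraries it is set against had entered the choice and were chosen to be low, so these ratios and counts are independent of the rule in the library left out alone. Without drought_LRM 1, 2 or 3 the rule chose 164, 179 and 141 genes. The library left out exceeded all 9 libraries of the other groups in 127, 160 and 138 of these, or 77.4%, 89.4% and 97.9%, against 34.6%, 35.4% and 44.6% of all genes with the same minimum. Its median log2 ratio to irrigated_LRM was 1.04, 1.01 and 1.14 in the chosen genes, beside 1.15, 1.14 and 1.16 in the libraries that had chosen them, and 0.11, 0.14 and 0.23 over all genes of the minimum. Part of each of these differences is fixed by the libraries that chose the genes, and they are given as a description.

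The drought_water libraries gave unlike answers when read in this way. Without drought_water 1 the rule chose 371 genes, and in 370 of them drought_water 1 was above the irrigated_water mean, with a median log2 ratio of 0.57 beside 0.07 over all genes of the minimum. The share above that mean was 60.3% over all genes of the minimum. In 344 of the 371 (92.7%, beside 40.4%) it was below the lowest drought_LRM library. Drought_water 2 stood at a median of 0.21 in the 154 genes chosen without it, and drought_water 3 at -0.03 in the 68 chosen without it. Drought_water 3 was above the irrigated_water mean in 28 of its 68, close to the 45.1% of all genes of the minimum. Left-out irrigated_LRM libraries had medians of 0.03, -0.09 and -0.09 over irrigated_water, beside 0.02, -0.01 and -0.02 over all genes of the minimum. They were above the irrigated_water mean in 87 of 163, 49 of 138 and 39 of 138 chosen genes. Over all genes of the minimum these shares were 53.4%, 47.6% and 46.2%, so replicates 2 and 3 lay lower in the chosen genes. Omission of irrigated_water 1, 2 or 3 gave 72, 210 and 206 genes, of which 59, 121 and 126 were among the 134.

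**Figure D4:**
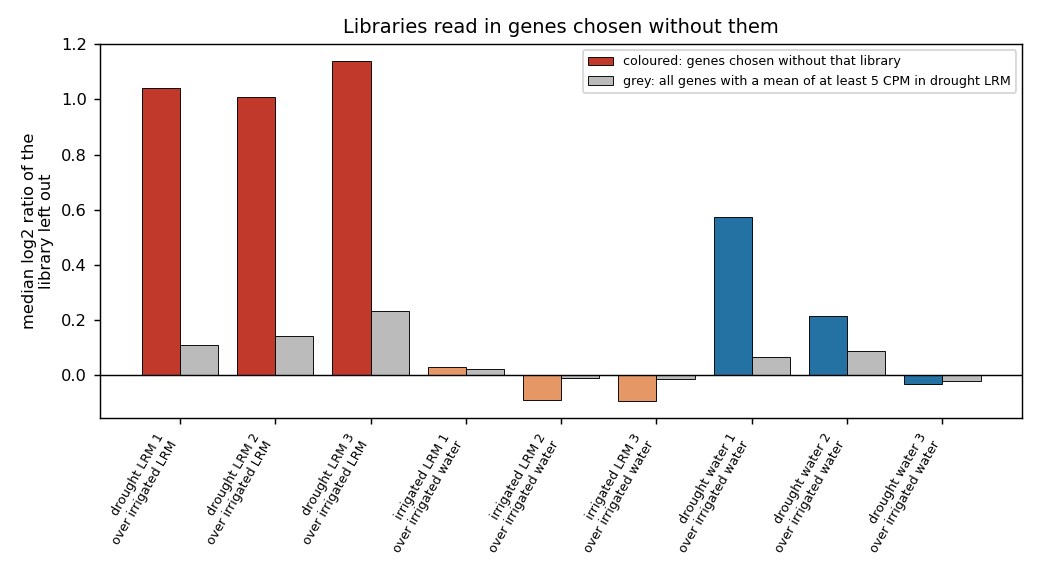
Median log2 ratio of each LRM or drought library to the group named under it, in genes chosen by the rule without that library (coloured) and in all genes that averaged 5 CPM or more in drought_LRM (grey). The drought_LRM libraries stood at 1.04, 1.01 and 1.14, and the drought_water libraries at 0.57, 0.21 and -0.03.

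Differential expression was tested over all 57226 genes that passed a filter on low counts, with edgeR's quasi-likelihood test and a call at a Benjamini-Hochberg adjusted p below 0.05. All 134 genes passed the filter. For drought against full irrigation with LRM 134 of the 134 were called higher, beside 8.65% of all tested genes. For LRM against water under drought 122 were called higher, beside 4.26%, and for the interaction 46 were called positive, beside 0.467%. These contrasts were used to choose the genes, so the counts describe the choice and nothing is read from them. An unadjusted p below 0.05 for the interaction in edgeR was found in 131 of the 134, beside 7387 of the 57226 tested genes, and this too describes the choice. The interaction count was 1 to 27 without any one of 11 of the libraries and 90 without drought_water 1, and DESeq2 called 110.

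With water 0 of the 134 genes were called for drought in either direction, beside 0.744% of all tested genes called higher and 0.0856% called lower. In edgeR 0 of the 134 had an unadjusted p below 0.05, beside 6504 of the 57226 tested genes, and DESeq2 called 0 of the 134. The rule bounds the drought change with water as well. For LRM against water under full irrigation, which is no criterion of the rule although its libraries set the ratios, edgeR called 0 of the 134 genes, beside 0% of all tested genes. Of the 134 fitted differences 96 were negative and 38 positive, with a median of -0.11 on the log2 scale beside -0.0011 over all tested genes. An unadjusted p below 0.05 in edgeR was found in 12 of the 134 genes, all lower with LRM, beside 4977 of the 57226 tested genes in either direction. DESeq2 called 0 of the 134. A low level in irrigated_LRM raises the drought ratio with LRM, so the choice itself favours such values. Without irrigated_water 1 the median was -0.04.

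The genes were spread over the genome. They lay on 36 of the 41 chromosome arms or chromosomes named in the identifiers. The most on any one was 9, on the long arm of 5D (6.72%, beside 4.30% of the genes with the same minimum). Arm 4AL held 8 (5.97%, beside 3.01%) and 7AS held 7 (5.22%, beside 2.09%). Arms 1AS, 1DS, 3AL, 5BS and 6BS held 0, and each carried only 1.23% to 2.55% of the genes with the same minimum. Subgenome D held 53 of them (39.6%), A 43 (32.1%) and B 38 (28.4%), beside 32.5%, 32.3% and 35.2% of the genes with the same minimum. Chromosomes of group 7 held 25 (18.7%, beside 12.6%) and those of group 3 held 13 (9.70%, beside 14.3%). Their implied lengths ran from 323 to 8332 bases with a median of 1902, beside 1902 over the genes of the minimum.

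Some of the 134 identifiers have near twins that were counted separately. Traes_5AL_B446A07423, with 215, 182 and 168 CPM in drought_LRM, 96.5, 92.6 and 88.0 CPM in irrigated_LRM, 95.9, 93.0 and 90.8 CPM in drought_water and 94.0, 83.6 and 82.3 CPM in irrigated_water, shares its stem with 3 others. Those were Traes_5AL_B446A0742, Traes_5AL_B446A07421 and Traes_5AL_B446A07422, with drought ratios with LRM of 0.90, 0.90 and 0.87, which missed the limit of 1. Traes_3B_BD1F09DAC1 had a twin, Traes_3B_BD1F09DAC, with a ratio of 1.15 with LRM and 0.27 with water, and Traes_4AL_70E8374151 had one, Traes_4AL_70E837415, with 1.58 and 0.33. The twins Traes_3B_BD1F09DAC and Traes_4AL_70E837415 lay past the limit on the change with water. Such identifiers may share reads, so each of these 3 genes is uncertain as a separate gene, and copies of a gene in the 3 subgenomes could not be paired at all.

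The scale of the values touches the choice. Over the 19380 genes of the minimum the median drought ratio with LRM was 0.18 on the log2 scale by column totals and 0.02 with TMM scaling, which sets the bulk of genes level. Relative to the bulk the drought ratio with LRM of the 134 genes ran from 0.85 upward with a median of 1.01. The gap to the other 9 libraries remained in 133. All 134 were chosen at a ratio of at least 1 by column totals, and the change of scale was far smaller. Their higher level in drought_LRM on this scale thus follows from the choice and is a description. With TMM 70 of them reached a ratio of 1, and the rule chose 87 genes, of which 69 were among the 134.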

How the data were processed

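The deposited table of read counts (whole numbers, no normalization, as judged from the values) was the main source. A second deposited table held FPKM, judged from the values: 99.8% of 555204 cells with more than 20 counts lay within 5% of the value implied by count, total and a constant length per gene. It was used for lengths, levels per length and alternatives; 1 cell of the 134 genes was 1000 times too high and was divided. HISAT2, StringTie, FastQC and DESeq2 appear in the submitters' processing notes with no role or version; build, annotation and strand setting: not given in the sources used here. CPM used column totals, and ratios used group mean CPM + 0.5. edgeR 4.0.16 in R 4.3.3 fitted 4 group means to all 12 libraries with TMM and filterByExpr, and standard errors came from its F values; DESeq2 1.42.0 was an alternative. The fit was tested on simulated data. The members, the rule and the lists were chosen with earlier results of these data known. Genes named are the 4 with the highest level, largest drought ratio with LRM or smallest interaction p, the 2 with the widest or narrowest drought_LRM spread, and those nearest the limits; parts of the naming rule for genes at 0 elsewhere or called in other contrasts found none. Lists of leaf markers could not be applied. Alternatives covered scaling, limits, pseudocount, filter, tool, replicate block and single libraries left out.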

Additional observations from a re-analysis of the deposited data

Results flagged for a closer look

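Of the 16 genes named by rule 10 had an interaction call in edgeR, beside 0.467% of all tested genes called positive. The limits that chose the 134 genes fix a positive interaction, and 4 of the 16 were named for the smallest interaction p, so the count and the values are a description and no test. On the log2 scale the interaction was 1.995 in Traes_2BL_EF188FE1F, 1.97 in Traes_3DL_E7E17D8A9, 1.71 in Traes_7DS_43B37BC41, 1.26 in Traes_6DS_11E957F4D, 1.24 in Traes_7DS_86C512854, 1.23 in Traes_2DS_895D44BD6, 1.15 in Traes_7DL_DB32ADFAE, 0.88 in Traes_4DS_05DEB5A63, 0.88 in Traes_5DL_488FBAEEC and 0.80 in Traes_5AL_B446A07423. Of 16 alternatives, the call was lost in 0 for Traes_6DS_11E957F4D, in 2 each for Traes_2DS_895D44BD6, Traes_7DS_86C512854 and Traes_5DL_488FBAEEC, in 3 for Traes_2BL_EF188FE1F, in 5 for Traes_4DS_05DEB5A63, in 9 for Traes_7DS_43B37BC41, in 10 for Traes_5AL_B446A07423, in 11 for Traes_3DL_E7E17D8A9 and in 12 for Traes_7DL_DB32ADFAE. Apart from the scaling by library totals for the last pair, each loss followed the omission of a single library, and drought_water 2 was among those for all 9 genes with a loss.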

How the results depend on the processing

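The number of genes chosen depended most on the limits themselves: 483 with a limit of 0.5 on the change with water, 34 with 0.1, 12 with a drought ratio with LRM of at least 1.5, 310 with a minimum of 1 CPM and 89 with 10 CPM. It was 87 with TMM scaling, 68 to 371 without single libraries (68 without drought_water 3, 371 without drought_water 1), and 216 without both drought_water 1 and irrigated_water 1, an alternative chosen after seeing the data. Other pseudocounts, group medians and FPKM gave 118 to 147, but group medians shared only 69 genes with the 134. The interaction, with 46 calls, had 73 with the replicate block, DESeq2 gave 110, and single omissions gave 1 to 90. The replicate numbers were treated as names of samples. Of 18 same-numbered pairs 5 deviated together with a correlation over 0.1 (range -0.19 to 0.23). Whether same-numbered libraries shared a batch was not tested, and the sources used here give none. The replicate block changed none of the other counts of calls by over 1.5 times. The counts for the other 4 contrasts stayed within 1.5 times in every alternative run. Among the named genes 81 single calls were lost, 13 gained and 0 reversed. The depth of drought_LRM 2 limits that library most. The cause of these shifts was not tested.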
